A study of Mus musculus with 14 samples.

Results

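Cholesterol synthesis was examined in sorted spinal microglia through 8 genes, 7 encoding enzymes of the pathway (Hmgcs1, Idi1, Fdps, Fdft1, Sqle, Lss and Cyp51) and 1 encoding a regulator of it (Insig1). They were chosen by name, as the entries of the deposited values whose symbol is one of these 8, and all 8 were found among 14329 genes and passed the filter on low values that left 12645 genes to test. None of them takes up cholesterol, so the receptors and endosomal genes of uptake were read from a wider list of 61 sterol genes, of which 59 were present and 58 were tested. The libraries came from microglia of the dorsal lumbar spinal cord, sorted as CD45low CD11b+ CX3CR1+ cells (2000 cells per library) by a gate that also left out Ly6C+ and CCR2+ cells per the study's methods, of 6-month-old mice collected at day 5. WT mice and TASTPM mice, which carry human APP with the Swedish mutation and a further human transgene under the neuronal Thy-1 promoter and model amyloid build-up, received serum on days 0 and 2. K/BxN ST (serum transfer) mice were given arthritogenic K/BxN serum and Control ST mice control serum, with 4 libraries for each genotype given K/BxN serum and 3 for each given control serum. TASTPM mice were heterozygous double mutants on a C57BL/6 background, and control serum was pooled from KRN/C57 mice. Both sexes were used in the study, the sex behind each library was not used here, and replicates were individual mice per the study's methods.

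Cells build cholesterol from acetyl-CoA. Hmgcs1 makes HMG-CoA, the precursor of mevalonate, and Idi1 and Fdps turn mevalonate-derived isoprenoids into farnesyl diphosphate. Fdft1 joins farnesyl units into squalene, Sqle oxidises it, Lss closes the rings to give lanosterol, and Cyp51 removes a methyl group from lanosterol on the way to cholesterol. When sterol in the endoplasmic reticulum is low, SCAP carries the transcription factor SREBP2 to the Golgi, where it is cut and released to activate these genes together. Insig1 holds SCAP back when sterol is plentiful and is itself a target of SREBP. In the nervous system astrocytes and oligodendrocytes are known for high cholesterol synthesis, and microglia for the handling of cholesterol from debris.

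Since members of the pathway are classed together by their shared control through sterol regulatory elements, the upstream regions are shown for the 5 genes with an entry in the RefSeq promoter sequences used (build GRCm38.p6): Hmgcs1, Idi1, Lss, Cyp51 and Insig1. Sqle, Fdft1 and Fdps had no entry. Each line gives the 250 bases before the start that RefSeq gives, 5′ to 3′ on the strand of the gene, and each sequence matched the GRCm39 genome at 1 place. The GENCODE gene begins elsewhere, so that 141 bases of the Lss region, 105 of Idi1, 95 of Insig1 and 54 of Cyp51 lie inside the gene as GENCODE draws it, and the Hmgcs1 region ends 28 bases short of it. Capitals mark the sterol regulatory element core TCACNCCAC, the NF-Y box CCAAT, the Sp1 box GGGCGG and the E-box CACGTG, searched on both strands, so that ATTGG and CCGCCC are the boxes on the other strand. The regions are chr13:120151637-120151886 (plus strand) for Hmgcs1, chr13:8935392-8935641 (plus strand) for Idi1, chr10:76367189-76367438 (plus strand) for Lss, chr5:4154698-4154947 (minus strand) for Cyp51 and chr5:28276160-28276409 (plus strand) for Insig1, in GRCm39.
Hmgcs1: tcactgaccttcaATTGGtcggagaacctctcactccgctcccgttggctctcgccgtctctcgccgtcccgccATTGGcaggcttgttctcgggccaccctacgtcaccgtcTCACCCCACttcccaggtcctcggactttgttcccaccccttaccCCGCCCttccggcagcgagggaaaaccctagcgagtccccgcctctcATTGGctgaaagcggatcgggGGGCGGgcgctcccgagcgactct
Idi1: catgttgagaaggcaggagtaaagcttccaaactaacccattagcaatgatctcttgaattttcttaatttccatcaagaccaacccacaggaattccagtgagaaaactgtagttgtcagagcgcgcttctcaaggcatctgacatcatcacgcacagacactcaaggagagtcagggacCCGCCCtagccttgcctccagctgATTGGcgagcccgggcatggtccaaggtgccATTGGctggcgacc
Lss: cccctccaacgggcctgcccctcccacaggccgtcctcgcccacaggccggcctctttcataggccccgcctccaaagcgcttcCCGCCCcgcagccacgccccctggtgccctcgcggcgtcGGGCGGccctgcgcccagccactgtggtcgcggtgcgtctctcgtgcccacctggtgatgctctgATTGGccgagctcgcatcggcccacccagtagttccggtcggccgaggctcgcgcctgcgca
Cyp51: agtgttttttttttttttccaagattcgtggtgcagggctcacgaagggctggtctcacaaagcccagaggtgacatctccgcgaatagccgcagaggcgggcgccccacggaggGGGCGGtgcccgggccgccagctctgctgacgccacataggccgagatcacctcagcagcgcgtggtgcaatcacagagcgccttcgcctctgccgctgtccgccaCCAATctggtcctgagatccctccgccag
Insig1: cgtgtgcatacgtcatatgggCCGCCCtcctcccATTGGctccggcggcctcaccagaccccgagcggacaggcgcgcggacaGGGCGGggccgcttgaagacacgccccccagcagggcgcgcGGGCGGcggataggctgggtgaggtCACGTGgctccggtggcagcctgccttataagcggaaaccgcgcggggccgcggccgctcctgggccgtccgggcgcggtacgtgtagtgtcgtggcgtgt

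The sterol regulatory element core was found in 1 of the 5 regions, that of Hmgcs1, where it begins 137 bases before the RefSeq start, and in 1.05% of all 32851 promoters of the same length. CCAAT stood in all 5 regions and in 33.9% of all promoters, and GGGCGG in all 5 and in 32.7%. Insig1 alone of the 5 held CACGTG, which 6.02% of all promoters hold. These are matches of letters and not sites shown to be bound.

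The 8 microglial markers, among them P2ry12, Tmem119 and Sall1, were read in all 14 libraries and made up 1.79% to 6.34% of reads. A set of 4 libraries stood apart. In WT K/BxN ST 1 and 2 and TASTPM K/BxN ST 1 and 2, 9 monocyte and neutrophil markers took 2.79% to 4.60% of reads and microglial markers 1.79% to 4.18%, against 0.0586% to 0.139% and 4.84% to 6.34% in the other 10 libraries. Of the genes whose products the gate was meant to leave out, Ly6c2 had 12898 to 29133 normalized counts in these 4 and 1.87 to 17.8 in the others, and Ccr2 had 8537 to 27035 and 3.13 to 86.0. The summed border-associated macrophage markers (6 of 6 present) were also higher in these 4, at 0.0691% to 0.208% against at most 0.0112%. So were the summed dendritic cell markers (4 of 5 present), at 0.00462% to 0.0467% against at most 0.00134%. F13a1, Pf4, Cbr2, Cd209a, Flt3 and Clec9a were each higher in all 4 than in any other library. Lyve1, Mrc1, Cd163 and Zbtb46 overlapped the others. Lyve1 was highest in TASTPM Control ST 2 (476) and Zbtb46 in TASTPM K/BxN ST 3 (223). Astrocyte markers took 0.00962% to 0.0200% in these 4 and 0.0172% to 0.0458% in the other 10. Each comparison of the 8 genes is therefore given with and without these 4 libraries. The red-cell markers were highest in WT Control ST 3, at 0.242% of reads. Oligodendrocyte markers, of which 6 of 8 were present, took 0.0179% to 0.0294%, with overlapping ranges in the 4 groups. The libraries held 14223015 to 20239175 reads on genes. In bulk libraries, fewer cells of a type and less RNA per cell cannot be told apart.

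The values are normalized counts, the reads of a gene divided by 1 factor for each library, so that 1 read is worth 0.838 to 1.19. Values are given in the order of the library numbers, and positions are in GRCm39. The first enzyme of the group, Hmgcs1 (ENSMUSG00000093930, chr13:120151915-120170470, plus strand), was the steadiest. Hmgcs1 had normalized counts of 383, 687 and 403 in WT libraries with control serum and 499, 409, 338 and 632 in those with K/BxN serum. In TASTPM there were 420, 377 and 566 under control serum and 448, 455, 798 and 630 under K/BxN serum. The highest values were in TASTPM K/BxN ST 3 and WT Control ST 2, and all groups overlapped. Idi1 (ENSMUSG00000058258, chr13:8935537-8942487, plus strand) had 147, 131 and 268 in WT libraries with control serum and 331, 181, 134 and 80.7 in those with K/BxN serum. The TASTPM libraries held 282, 76.6 and 294 with control serum and 397, 286, 107 and 137 with K/BxN serum. In both K/BxN groups the libraries high in monocyte markers held the highest Idi1 values. Fdps (ENSMUSG00000059743, chr3:89000888-89019213, minus strand) was barely read, with 55.3, 22.6 and 17.2 in WT libraries with control serum and 25.3, 8.86, 106 and 37.1 in those with K/BxN serum. The TASTPM libraries held 7.31, 29.98 and 33.6 with control serum and 4.16, 32.3, 0 and 18.1 with K/BxN serum. Its 0 in TASTPM K/BxN ST 3 allows up to 3 reads in that library, by counting error only, since these are reads without molecular identifiers.

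**Figure D1:**
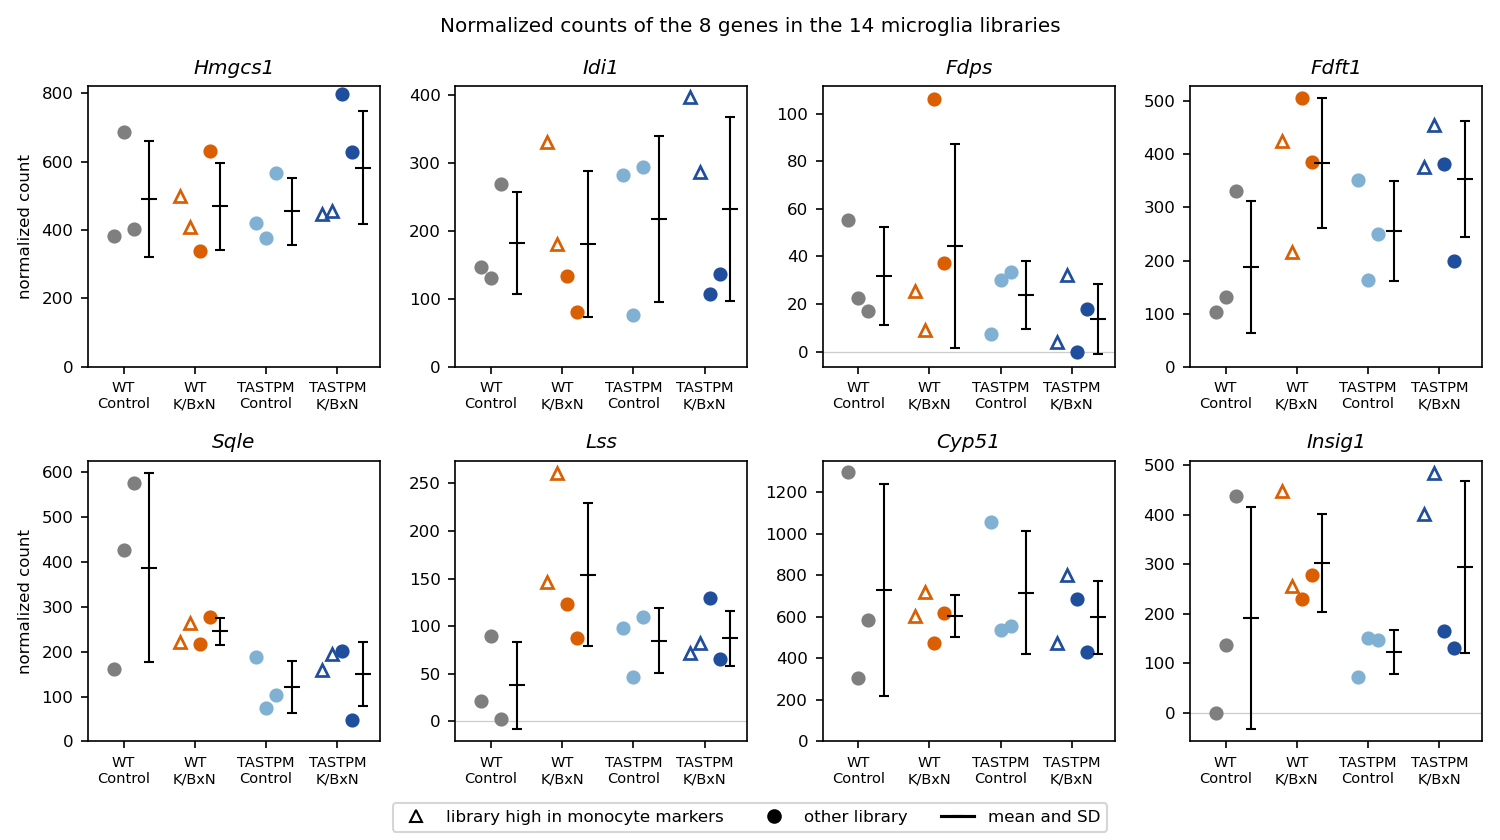
Normalized counts (vertical axes, linear, each gene on its own scale) of the 8 genes in each library of the 4 groups, with open triangles for the 4 libraries high in monocyte markers and bars for the mean and SD of the group. The groups overlap in nearly every panel, and Sqle in TASTPM K/BxN ST (47.4 to 201) lies below Sqle in WT K/BxN ST (217 to 277).

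Of the enzymes of squalene and lanosterol, Fdft1 (ENSMUSG00000021273, chr14:63382189-63417027, minus strand) had 103, 131 and 330 in WT libraries with control serum and 425, 216, 506 and 386 in those with K/BxN serum. TASTPM libraries had 351, 163 and 251 under control serum and 375, 456, 382 and 199 under K/BxN serum. In each genotype 3 of 4 K/BxN libraries were above every Control library. Sqle (ENSMUSG00000022351, chr15:59186869-59203043, plus strand) had 160, 426 and 576 in WT libraries with control serum and 222, 265, 217 and 277 in those with K/BxN serum. In TASTPM there were 187, 75.5 and 103 under control serum and 159, 194, 201 and 47.4 under K/BxN serum. All 7 TASTPM libraries lay between 47.4 and 201 and the 7 WT libraries between 160 and 576. Lss (ENSMUSG00000033105, chr10:76367298-76392976, plus strand) had 21.6, 89.7 and 2.87 in WT libraries with control serum and 146, 260, 123 and 87.2 in those with K/BxN serum. The TASTPM libraries held 98.2, 46.6 and 110 with control serum and 71.8, 82.8, 129 and 65.4 with K/BxN serum. The lowest value was that of WT Control ST 3, which rests on 3 reads and is also the library highest in red-cell markers. Cyp51 (ENSMUSG00000001467, chr5:4123416-4154751, minus strand) had 1297, 306 and 585 in WT libraries with control serum and 604, 717, 475 and 618 in those with K/BxN serum. TASTPM libraries had 1056, 538 and 555 under control serum and 473, 802, 687 and 430 under K/BxN serum. Its 2 highest values were in Control libraries, 1 of each genotype.

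The regulator Insig1 (ENSMUSG00000045294, chr5:28276315-28283668, plus strand) had 0, 137 and 438 in WT libraries with control serum and 448, 255, 229 and 277 in those with K/BxN serum. In TASTPM there were 71.0, 150 and 146 under control serum and 400, 483, 164 and 131 under K/BxN serum. Insig1 was at 0 reads in WT Control ST 1 and at 459 reads in WT Control ST 3. The 4 libraries high in monocyte markers held 255 to 483, with a median of 424, and the other 10 held 0 to 438, with a median of 148, and the part of these libraries in the results for Insig1 was not tested. The same libraries held 181 to 397 of Idi1 against 76.6 to 294 in the other 10, and 71.8 to 260 of Lss (mean 140) against 2.87 to 129 (mean 77.4), whereas Hmgcs1 (409 to 499 against 338 to 798), Sqle (159 to 265 against 47.4 to 576) and Cyp51 (473 to 802 against 306 to 1297) lay inside the range of the others.

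Levels were compared between genes per length of the canonical transcript. Cyp51 was highest at 131 ± 52.1 normalized counts per kilobase (SD, n = 14 libraries), followed by Hmgcs1 at 123 ± 33.5, Fdft1 at 87.9 ± 36.7, Insig1 at 86.9 ± 55.5, Sqle at 79.1 ± 49.2 and Idi1 at 78.7 ± 39.8. Fdps at 21.8 ± 20.6 and Lss at 14.9 ± 9.72 were lowest. The only neighbours in this order that were the same way round in more than 11 of 14 libraries were Idi1 and Fdps (13 of 14), and the mean difference of every other pair of neighbours was smaller than its SD over the libraries. How reads were assigned could bear on this order. Alignments of at least 150 bases and 95% identity elsewhere in GRCm39 covered 95.8% of the canonical transcript of Idi1, 91.3% of Fdps, 74.2% of Insig1, 48.0% of Fdft1 and 9.67% of Hmgcs1, and none of Sqle, Lss or Cyp51. Reads from those stretches may match several places, so the levels of Idi1, Fdps, Insig1 and Fdft1 are uncertain. The canonical exons of Cyp51 share 1204 bases with an exon of Akap9, those of Fdft1 1184 with an exon of Ctsb and those of Sqle 469 with an exon of Washc5 in the annotation used here, and how the authors' counting treated shared bases was not tested.

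The SD between libraries within groups, on the log2 scale with 10 degrees of freedom, was 0.39 for Hmgcs1, 0.59 for Cyp51, 0.62 for Fdft1, 0.75 for Sqle, 0.87 for Idi1, 1.15 for Lss, 1.59 for Fdps and 2.18 for Insig1. The value of Insig1 rested on WT Control ST 1, where it had no read: without that library its SD was 0.76 (9 degrees of freedom), below those of Fdps (1.63), Lss (1.21) and Idi1 (0.91). The spread of Hmgcs1 was smaller than that of most genes of like level (within 0.5 of its mean log2 value), 22.6% of which had a smaller SD. For Insig1 96.3% of genes of like level were below it, and 67.3% without WT Control ST 1. For the other 6 genes between 38.6% (Fdps) and 79.1% (Cyp51) were below. Without WT Control ST 1 the shares of these 6 ran from 43.1% (Fdps) to 76.3% (Idi1), with Cyp51 at 44.9%.

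**Figure D2:**
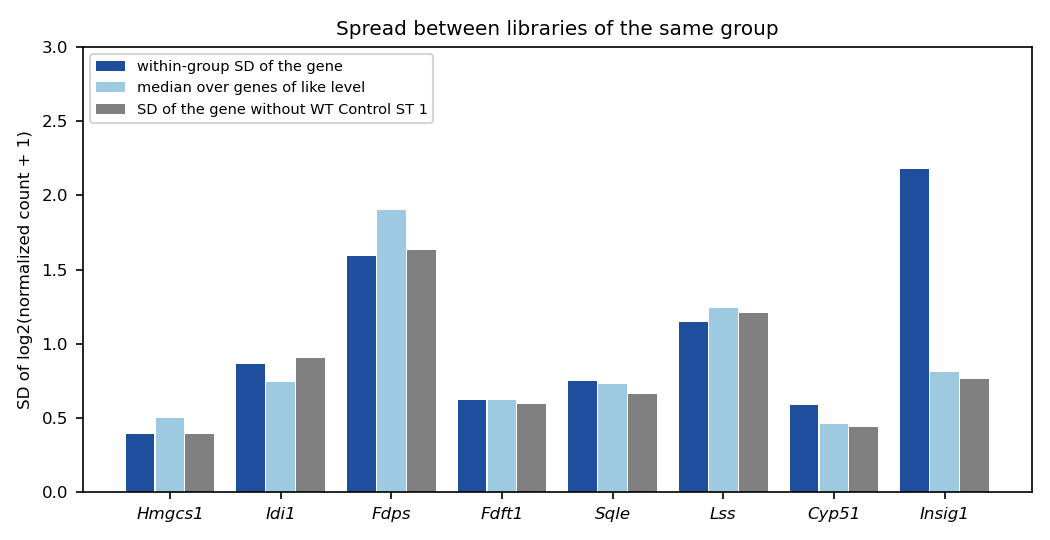
SD of log2(normalized count + 1) between libraries of the same group for each gene (dark bars), the median SD of genes of like level (light bars) and the SD of the gene without WT Control ST 1 (grey bars). Insig1 stands at 2.18 over all libraries, above the 0.81 of genes of like level, and at 0.76 without that library.

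The first question was whether K/BxN serum changed these genes in WT microglia. Log2 fold changes were fitted with limma to log2(normalized count + 1), and a call needed a Benjamini-Hochberg adjusted p under 0.05 and a change of more than 1 in either direction. These values are differences of mean logs, in which a library with few or no reads weighs heavily: in this comparison limma gave 2.85 for Lss and 2.90 for Insig1, and edgeR on the reads 2.04 and 0.67. limma called 0 of the 8, beside 0.00791% of all 12645 genes. edgeR also called 0 of the 8 (0% of all genes) and DESeq2 0 of the 8 (1% of all genes). At an unadjusted p below 0.05, without correction, limma had 2 of the 8 higher and 0 lower, against 7.13% of all genes. These 2 were Lss, at a log2 fold change of 2.85 ± 0.86 (SE; 95% interval 1.01 to 4.68; limma adjusted p = 0.546), and Fdft1, at 1.15 ± 0.47 (0.14 to 2.16; limma adjusted p = 0.684). Lss averaged 154 ± 74.8 in WT K/BxN ST (SD, n = 4) and 38.0 ± 45.7 in WT Control ST (SD, n = 3), and 3 of 4 K/BxN libraries were above every Control library. Without WT Control ST 3, where Lss rested on 3 reads, its log2 fold change was 1.66, and with 1 library left out at a time it ranged from 1.66 to 3.94. The two-sided exact permutation test over 35 assignments, which can give no p below 0.0286, gave p = 0.0571 for Lss and p = 0.114 for Fdft1.

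Insig1 had a log2 fold change of 2.90 in WT, with an interval of -0.12 to 5.92, and this value rested on WT Control ST 1, where no read was found: without that library it was 0.25. The intervals of Hmgcs1 (-0.05; -0.74 to 0.64) and Cyp51 (-0.04; -0.94 to 0.85) stayed within 1 of 0 on the log2 scale. Those of Idi1 (-0.12; -1.47 to 1.24), Sqle (-0.48; -1.70 to 0.74) and Fdps (0.15; -2.46 to 2.75) reached past a 2-fold change, so that a change of that size in these 3 was not detectable. None of the 8 had every WT K/BxN library above (3.67% of all genes) or below (3.71%) every WT Control library. The median of the 8 was 0.05, beside 0.06 over all genes tested, with 4 genes above 0 and 4 below, and it was 0.249 in edgeR (all genes 0.021) and 0.240 in DESeq2 (all genes 0.0096). Without the 4 libraries high in monocyte markers limma called 0 of the 8 (0% of all genes), the median was 0.56 (0.20 in edgeR), Fdft1 was 1.42 (0.10 to 2.74) and Lss 2.39 (-0.25 to 5.04). The others were then at -0.034 for Hmgcs1, -0.73 for Idi1, 1.14 for Fdps, -0.47 for Sqle, -0.18 for Cyp51 and 2.69 for Insig1.

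In TASTPM microglia the same comparison called 0 of the 8 with limma (0% of all genes), 0 with edgeR (0%) and 0 with DESeq2 (0.127%), and limma had 0 of the 8 at an unadjusted p below 0.05 (4.22% of all genes). The log2 fold change of Hmgcs1 was 0.34 (95% interval -0.35 to 1.03), with 2 of 4 K/BxN libraries above every Control library. Fdft1, at 0.47 (-0.54 to 1.48), had 3 of 4 above, and Insig1, at 1.13 (-1.90 to 4.15), also had 3 of 4 above. Cyp51 was at -0.23 (-1.13 to 0.66), Sqle at 0.21 (-1.01 to 1.43), Idi1 at 0.12 (-1.23 to 1.48), Lss at 0.08 (-1.76 to 1.92) and Fdps at -1.45 (-4.06 to 1.15). Without TASTPM K/BxN ST 3, where Fdps had no read, it was -0.48. None of the 8 was without overlap, above (2.67% of all genes) or below (2.74%). The median of the 8 was 0.17 beside 0.01 over all genes. Without the libraries high in monocyte markers it was -0.01, limma called 0 of the 8 (0% of all genes), and Insig1 was at 0.34 (-3.85 to 4.53) and Idi1 at -0.61 (-2.18 to 0.95). Hmgcs1 was then at 0.66, Fdps at -2.25, Fdft1 at 0.18, Sqle at -0.21, Lss at 0.21 and Cyp51 at -0.32.

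**Figure D3:**
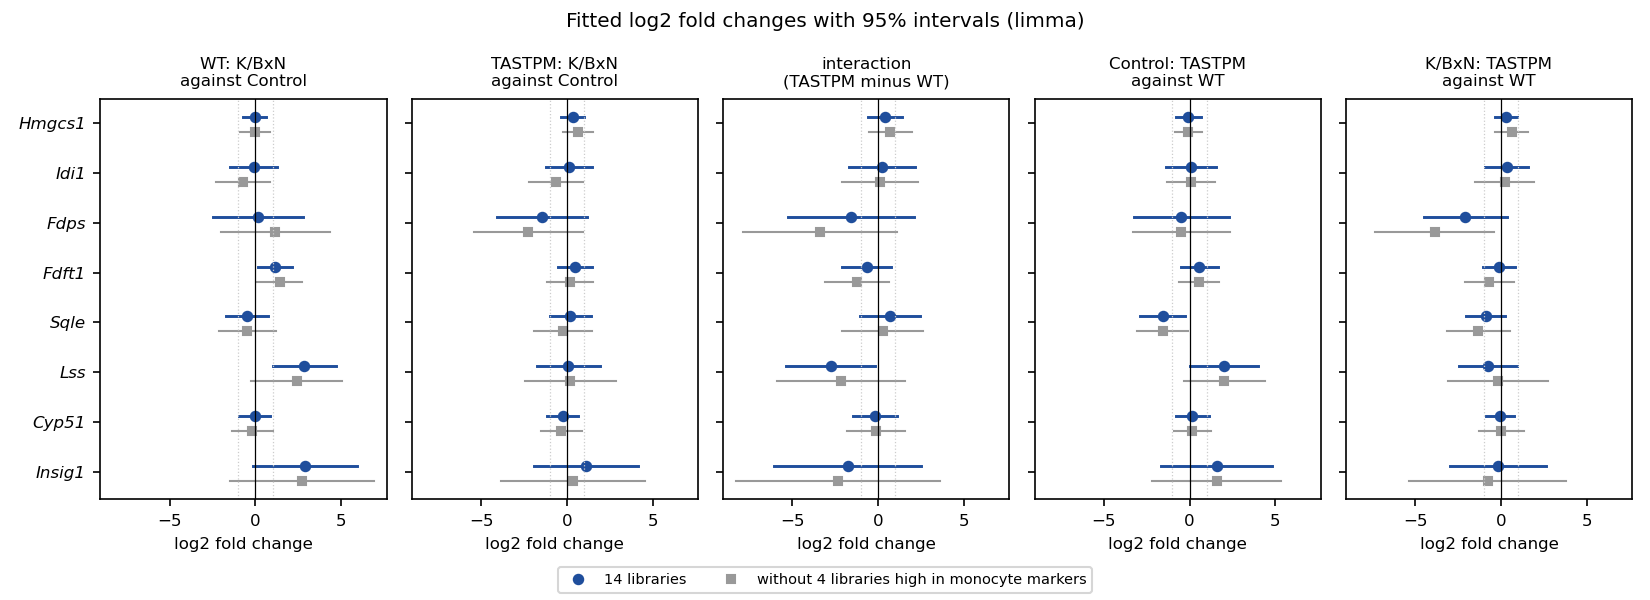
Log2 fold changes (horizontal axes) of the 8 genes in 5 comparisons, with 95% intervals from limma, over the 14 libraries (blue circles) and without the 4 libraries high in monocyte markers (grey squares). Lines of dots mark a 2-fold change. Hmgcs1 and Cyp51 have the narrowest intervals and Insig1 the widest (-0.12 to 5.92 in WT).

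Whether the serum response differed between genotypes was tested by the interaction, the response in TASTPM minus that in WT. limma called 0 of the 8 (0% of all genes), edgeR 0 (0%) and DESeq2 0 (0.0949%). At an unadjusted p below 0.05 limma had 1 of the 8, against 3.04% of all genes. It was Lss, at -2.77 ± 1.22 (SE; 95% interval -5.37 to -0.17; limma adjusted p = 0.999), which was -1.58 without WT Control ST 3 and -3.86 to -1.58 with 1 library left out at a time. The other 7 ranged from -1.77 for Insig1 (-6.05 to 2.502) to 0.69 for Sqle (-1.04 to 2.41), with Fdps at -1.60 (-5.29 to 2.08), Fdft1 at -0.68 (-2.102 to 0.75), Cyp51 at -0.19 (-1.46 to 1.07), Idi1 at 0.24 (-1.68 to 2.15) and Hmgcs1 at 0.39 (-0.59 to 1.36). Fdps was -0.63 without TASTPM K/BxN ST 3. The sign for Insig1 turned in edgeR (0.60) and DESeq2 (0.61) and without WT Control ST 1 (0.87). Without the 4 libraries high in monocyte markers limma again called 0 of the 8 (0% of all genes) and Lss was -2.19 (-5.92 to 1.55), with Hmgcs1 at 0.695, Idi1 at 0.11, Fdps at -3.39, Fdft1 at -1.24, Sqle at 0.26, Cyp51 at -0.14 and Insig1 at -2.35.

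TASTPM was then set against WT within each serum. Under control serum limma called 0 of the 8 (0% of all genes), edgeR 0 (0%) and DESeq2 0 (0.324%), and at an unadjusted p below 0.05 limma had 1 lower and 1 higher, against 5.57% of all genes. Sqle, which catalyses the oxidation of squalene, averaged 122 ± 58.1 in TASTPM (SD, n = 3) and 387 ± 210 in WT Control ST (SD, n = 3). Its log2 fold change was -1.58 ± 0.61 (SE; 95% interval -2.88 to -0.27; limma adjusted p = 0.815), with 2 of 3 TASTPM libraries below every WT library. Lss was at 2.02 ± 0.92 (0.05 to 3.98; limma adjusted p = 0.883), at 0.83 without WT Control ST 3, and at 0.83 to 3.11 with 1 library left out at a time. Over 20 assignments, for which 0.1 is the smallest p, the two-sided exact permutation test gave p = 0.2 for each of the 2. Hmgcs1 (-0.08; -0.82 to 0.66), Cyp51 (0.15; -0.81 to 1.10), Idi1 (0.10; -1.35 to 1.55), Fdft1 (0.56; -0.52 to 1.64), Fdps (-0.48; -3.27 to 2.30) and Insig1 (1.58; -1.66 to 4.81) had intervals across 0. Insig1 turned to -1.07 without WT Control ST 1 and was -0.64 in edgeR and -0.65 in DESeq2. None of the 8 had every TASTPM library above (4.97% of all genes) or below (4.71%) every WT library. The 4 libraries high in monocyte markers are not in these groups. Leaving them out of the shared fit, limma called 0 of the 8, beside 0.00791% of all genes. The fold changes are then those given, and the intervals became -3.08 to -0.076 for Sqle and -0.35 to 4.38 for Lss.

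Under K/BxN serum limma called 0 of the 8 (0% of all genes), edgeR 0 (0%) and DESeq2 0 (0%), and limma had 0 of the 8 at an unadjusted p below 0.05 (1.91% of all genes). Sqle averaged 150 ± 71.0 in TASTPM (SD, n = 4) and 245 ± 29.97 in WT (SD, n = 4), and all 4 TASTPM libraries were below all 4 WT libraries. It was the 1 of the 8 genes without overlap in this direction, which 0.672% of all genes showed, and 0 of the 8 were without overlap in the other (1.16%). The log2 fold change of Sqle was -0.89 ± 0.53 (SE; 95% interval -2.02 to 0.24; limma adjusted p = 1), and -0.41 without TASTPM K/BxN ST 4, and the two-sided exact permutation test gave p = 0.0286, the smallest that 70 assignments allow, before any correction for the 8 genes and 4 comparisons so tested. Sqle was thus at -1.58 and -0.89 in the comparisons of genotypes, which share no library but share 1 fit, and neither passed the correction. The other genes had intervals across 0, from Fdps at -2.08 (-4.50 to 0.33), which was -1.11 without TASTPM K/BxN ST 3 and -0.89 with library totals, and Lss at -0.75 (-2.45 to 0.95) to Hmgcs1 at 0.31 (-0.33 to 0.95) and Idi1 at 0.34 (-0.92 to 1.59), with Fdft1 at -0.12 (-1.05 to 0.82), Cyp51 at -0.05 (-0.87 to 0.78) and Insig1 at -0.20 (-2.999 to 2.60) between them. Without the 4 libraries high in monocyte markers, which leaves 2 libraries in each group, limma called 0 of the 8 (0% of all genes). Sqle was then at -1.32 (-3.16 to 0.52) and Fdps at -3.87 (-7.36 to -0.39), which rests in TASTPM on 1 library at 0 reads and another at 16. Hmgcs1 was at 0.61, Idi1 at 0.22, Fdft1 at -0.68, Lss at -0.17, Cyp51 at 0.0037 and Insig1 at -0.78. edgeR without the same libraries gave -2.97 for Fdps, with 0 of the 8 at an unadjusted p below 0.05 (385 of all 12645 genes).

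The levels of the 8 genes had little in common from library to library. Over the 14 libraries the 28 pairs of genes had Pearson correlations of log2 values from -0.55 (Cyp51 and Insig1) to 0.68 (Fdft1 and Insig1), with a median of -0.03 and 11 pairs above 0. Without WT Control ST 1 the range was -0.42 (Hmgcs1 and Fdps) to 0.51 (Fdft1 and Cyp51), with 13 pairs above 0, and Insig1 had an r of -0.0060 with Cyp51 and of 0.49 with Fdft1. After the group means were taken out the median was -0.05, the lowest -0.61 and the highest 0.73 (Fdft1 and Sqle). In the 10 libraries low in monocyte markers the median was -0.03. These values share libraries, depth and the scaling of each library, and are given as a description. Hmgcs1 was thus high in TASTPM K/BxN ST 3, where Fdps had no read, and Cyp51 was highest in WT Control ST 1, where Insig1 had none.

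**Figure D4:**
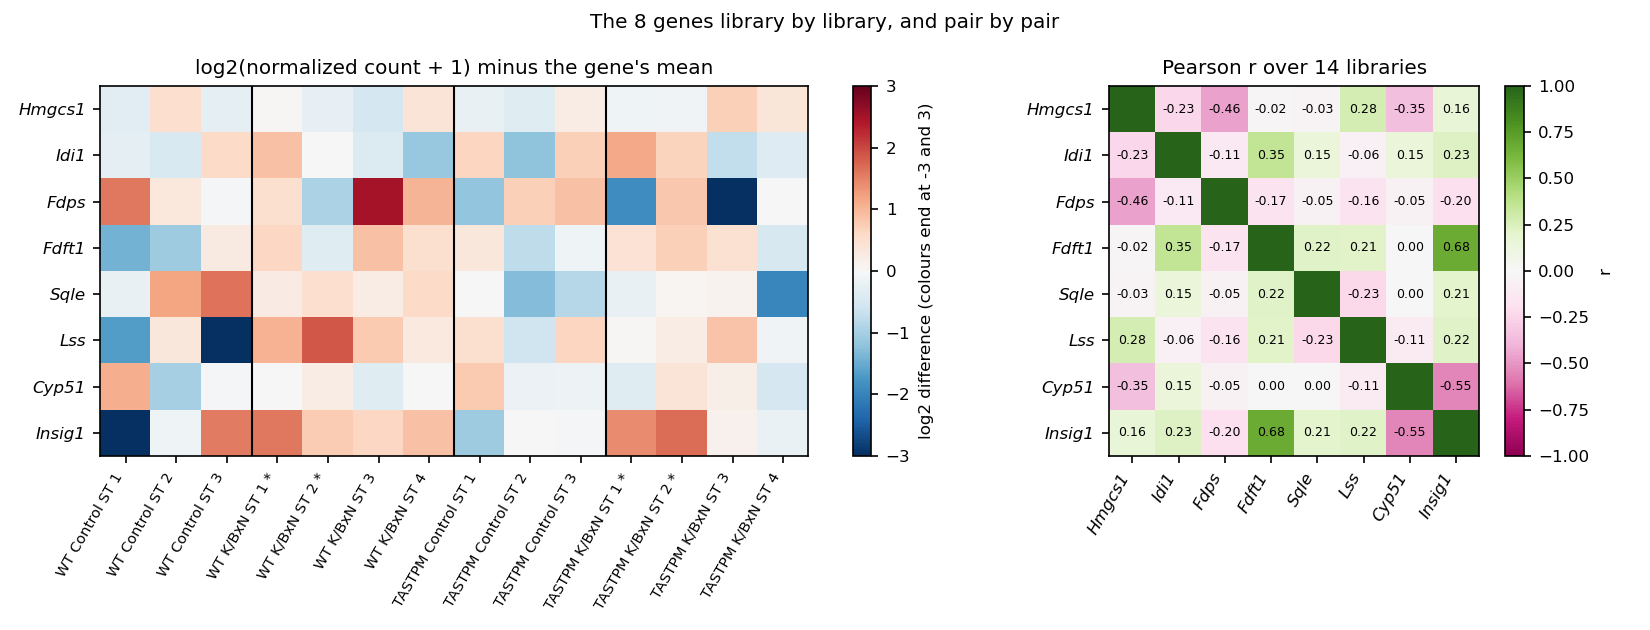
Left, log2(normalized count + 1) of each gene minus its own mean in each library, with lines between the groups and asterisks at the libraries high in monocyte markers. Right, Pearson r of each pair over the 14 libraries, from -0.55 to 0.68 (-0.42 to 0.51 without WT Control ST 1). No library is high or low for all 8 genes.

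A mean over the 8 genes, each centred on its own mean, was lowest in WT Control ST 1 (-1.06 on the log2 scale) and highest in WT K/BxN ST 1 (0.61). In the 4 groups it ranged in WT from -1.06 to -0.04 under control serum and from 0.23 to 0.61 under K/BxN serum, and in TASTPM from -0.46 to 0.16 and from -0.41 to 0.56. The lowest value turned on Insig1, which had no read in that library: over the other 7 genes WT Control ST 1 was at -0.18, and the lowest library was TASTPM Control ST 2 at -0.53. Over those 7 the ranges in WT were -0.31 to -0.025 and 0.15 to 0.47, and in TASTPM -0.53 to 0.19 and -0.44 to 0.40. Lss is among these 7, with 3 reads in WT Control ST 3, and the mean was not computed without it. The part of Lss in the gap between the WT ranges was not tested. The 5 genes outside the 8 most like the mean of all 8 over the 14 libraries were Dis3l (Pearson r 0.87, and 0.90 after taking out group means), Pex7 (0.87 and 0.80), Abca7 (0.87 and 0.81), Gm7517 (0.86 and 0.79) and Aida (0.86 and 0.85), the highest of 12645 genes, whose 95th percentile was 0.58. This likeness includes the -1.06 of WT Control ST 1, and it was not computed without Insig1 or without that library. Of the 8 genes themselves, each set against the mean of the other 7, Fdft1 had the highest r (0.64) and Cyp51 the lowest (-0.39). Without WT Control ST 1 the r of Cyp51 was -0.0060 with Insig1 and 0.51 with Fdft1. These 2 values with the mean of the other 7 were not computed without that library.

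Among the wider sterol genes limma, edgeR and DESeq2 called 0 of 58 in each of the 5 comparisons, where DESeq2 called 1%, 0.127%, 0.0949%, 0.324% and 0% of all genes, limma at most 0.00791% and edgeR 0%. At an unadjusted p below 0.05 limma had 5 higher and 1 lower for K/BxN serum in WT (7.13% of all genes in either direction), 1 and 0 in TASTPM (4.22%), and 1 and 1 for the interaction (3.04%). For genotype there were 2 and 2 under control serum (5.57%) and 0 and 1 under K/BxN serum (1.91%). Without the 4 libraries high in monocyte markers the counts, in the same order, were 2 and 1, 2 and 1, 1 and 0, 1 and 2, and 0 and 3. Over all 12645 genes, 538, 509, 495, 771 and 499 were then at such a p. The genes so counted over the 14 libraries are named here after their values were seen. For serum in TASTPM it was Tm7sf2, at 3.59, whose lowest value over the 14 libraries was 0. For the interaction they were Acaca (higher) and Lss (lower). Genotype under control serum had Lss and Ggps1 higher and Sqle and Acaca lower, and Lipa was lower under K/BxN serum. For serum in WT there were 6 genes. Beside Fdft1 and Lss they were Mvd, which decarboxylates mevalonate diphosphate, at 3.08 (1.01 to 5.16), Nsdhl, which acts on sterols after lanosterol, at 1.82 (0.45 to 3.18), Nus1, a partner of Dhdds, at 0.95 (0.30 to 1.61), and Acaca, which makes malonyl-CoA, at -1.82 (-3.27 to -0.38). limma adjusted p values were 0.568 for Mvd, 0.629 for Nsdhl, 0.569 for Nus1 and 0.658 for Acaca, and without the 4 libraries the log2 fold changes were 2.59, 1.72, 0.93 and -1.86. Mvd was at 1.75 without WT Control ST 3, where it had 5 reads (4.78 normalized counts, against 36.9 and 222 in the other WT Control libraries), and at 4.39 without WT Control ST 1. Nsdhl was at 0.85 without WT Control ST 1, where it had 28 reads (26.2, against 159 and 256), and at 2.47 without WT Control ST 2. Of the transcription factors that drive the pathway, Srebf2 was at 0.35 (-0.39 to 1.08) in WT and 0.56 (-0.17 to 1.299) in TASTPM, and Srebf1, which favours fatty acid genes, at -0.38 (-1.59 to 0.82) and 0.62 (-0.58 to 1.83). Scap, the escort of SREBP, was at -0.27 (-1.07 to 0.53) and -0.09 (-0.90 to 0.71), and Insig2, the second Insig protein, at -0.08 (-0.61 to 0.44) and -0.42 (-0.95 to 0.11). Without the libraries high in monocyte markers, the values in WT and TASTPM were 0.10 and 0.33 for Srebf2, -1.14 and 0.76 for Srebf1, -0.15 and 0.47 for Scap, and 0.12 and -0.19 for Insig2. Insig2 had 814 to 1674 over the 14 libraries. Mbtps1, a protease that cuts SREBP, had a mean of 1495 normalized counts.

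Of the genes of uptake and endosomal release 8 of 10 were present and tested. Npc2, which hands cholesterol out of late endosomes, and Lrp1, a receptor for apolipoprotein E, had the highest mean normalized counts of this role, at 10687 and 3449, and their intervals were within 1 of 0 in both genotypes, at -0.09 (-0.44 to 0.27) and -0.04 (-0.39 to 0.31) for Npc2 and 0.04 (-0.55 to 0.63) and 0.35 (-0.24 to 0.94) for Lrp1. Without the libraries high in monocyte markers Npc2 was at -0.18 and -0.14 and Lrp1 at 0.24 and 0.60.

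Of the enzymes after lanosterol, Lbr, which reduces the C14 double bond of sterols and also anchors lamin, ranged from 3453 to 7741 in the 4 libraries high in monocyte markers and from 771 to 2131 in the other 10. Its log2 fold change with serum was 0.63 (-0.74 to 1.998) in WT and 1.24 (-0.13 to 2.61) in TASTPM, and -0.34 and 0.26 without them. Ebp, a sterol isomerase, was steady at 1789 to 2543 in all 14. Apoe, the main lipid carrier of the brain, held 33549 to 54391 in those 4 libraries and 4624 to 35416 in the other 10, and Abca1, which exports cholesterol, held 1387 to 2556 and 2054 to 5753. Abca1 in WT K/BxN ST (2112 to 2603) lay below WT Control ST (2771 to 4388) without overlap, at a log2 fold change of -0.65 (-1.51 to 0.21) and of -0.61 (-1.45 to 0.23) without the libraries high in monocyte markers. It was 1 of 4 of the 58 genes that were lower without overlap in this comparison (3.71% of all genes), and 2 of the 58 were higher without overlap (3.67%). Acly, which makes cytosolic acetyl-CoA, was at 0.20 (-0.31 to 0.71) in WT and 0.17 (-0.34 to 0.68) in TASTPM, and Fads1, a fatty acid desaturase, at -0.38 (-1.20 to 0.45) and -0.24 (-1.06 to 0.59). In the isoprenoid branch Ggps1, which makes geranylgeranyl diphosphate, was at 0.24 (-0.38 to 0.86) and -0.32 (-0.95 to 0.30), and Dhdds, which makes dolichol precursors, at 0.14 (-0.44 to 0.73) and 0.52 (-0.07 to 1.10). Without the libraries high in monocyte markers the values in WT and TASTPM were 0.24 and 0.27 for Acly, 0.011 and 0.42 for Fads1, 0.46 and -0.026 for Ggps1, and -0.17 and 0.34 for Dhdds.

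**Figure D5:**
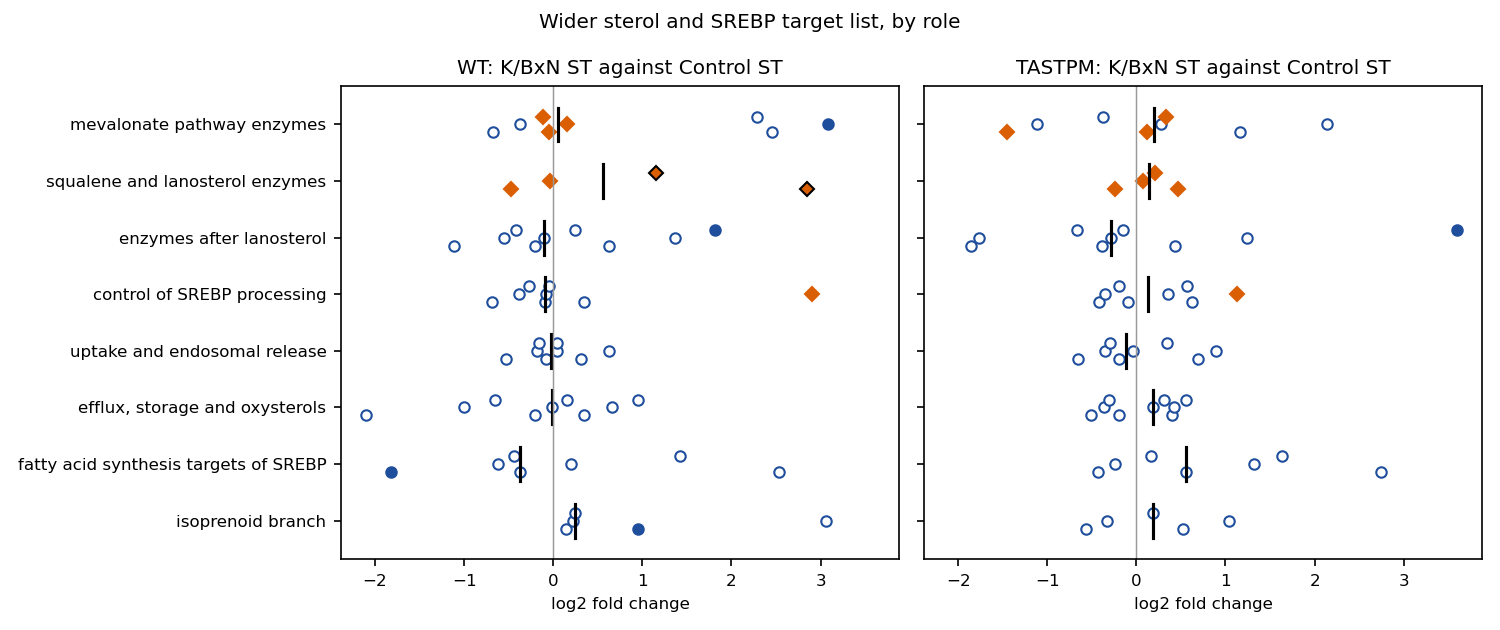
Log2 fold changes (horizontal axes) with K/BxN serum of the 58 sterol genes tested, by role, in WT and TASTPM, with diamonds for the 8 genes, filled circles or black edges for an unadjusted limma p below 0.05 and bars for the median of the role. Medians lie between -0.38 and 0.56, and none of the 58 passed the correction.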

How the data were processed

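RNA-seq libraries were prepared by the authors with SMART-Seq amplification, and reads were quality checked with FastQC 0.11.9, aligned to GRCm39 with HISAT2 2.1 and counted per gene with featureCounts 1.5.2, per the labels and the paper's methods. The deposited values are a normalized signal, the count of reads on a gene divided by 1 factor per library by the authors. Dividing by the smallest step of each library gave whole reads for 100% of the values (tolerance 0.001).

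Libraries were grouped by the headings of the deposited values. TASTPM K/BxN ST numbers are those of the sample labels, and the other groups are numbered in column order, because column numbers did not match the labels. The 7 repeated identifiers of 14336 entries were left out. A minimum of 10 reads in 7 or more libraries was required, and the genes left were fitted across all genes with limma 3.58.1 (trend, pseudocount of 1, 1 fit to 4 groups, Benjamini-Hochberg adjustment) in R 4.3.3. A count test was not the main test because the unit is a signal, and edgeR 4.0.16 and DESeq2 1.42.0 were run on the recovered reads as alternatives. The fit was also run on data simulated with the spread of the Control libraries. That leaves out the spread of the K/BxN libraries, and no result here rests on it. Single genes also had two-sided exact permutation tests. Promoters are from RefSeq, transcript lengths and overlaps from GENCODE on GRCm39, and copies from blastn 2.17.0.

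The 8 genes and the lists were chosen with earlier results of these data known. The text names the 8, Srebf1, Srebf2, Scap, Insig2, any gene called, the 2 most abundant genes of each role and the 5 genes most like the mean of the 8. Alternatives changed the normalization, pseudocount, filter, fit, test and libraries. The omissions of the 4 libraries high in monocyte markers, of WT Control ST 1 from the spread and the pairs, and of single WT libraries for Mvd and Nsdhl were chosen after seeing the data. Some genes that this rule names are not reported here.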

Additional observations from a re-analysis of the deposited data

How the results depend on the processing

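Under every alternative that was run, with both omissions of the 4 libraries high in monocyte markers among them, 0 of the 8 genes and 0 of the wider list were called in the comparisons run: all 5, except that the fit to the groups of a comparison alone was not run for the interaction. Of 1032 log2 fold changes of the 8 genes refitted, 60 changed sign, none of a called gene, and the cause was not tested. With edgeR, Idi1 was 0.013 for serum in WT, Cyp51 -0.024 and Insig1 -0.64 for genotype under control serum, and Insig1 0.60 for the interaction. With DESeq2, Cyp51 was -0.027 and Insig1 -0.65 for genotype under control serum, and 0.0068 and 0.61 for the interaction. With library totals, Hmgcs1 was 0.0057 and Cyp51 0.011 for serum in WT. Without the 4 libraries, limma gave -0.61 for Idi1 and -0.21 for Sqle for serum in TASTPM and 0.0037 for Cyp51 for genotype under K/BxN serum. There edgeR gave -0.85 for Idi1 for serum in TASTPM, -0.10 for Idi1 and 0.024 for Cyp51 for the interaction, -0.0059 for Cyp51 and -0.64 for Insig1 for genotype under control serum, and 0.018 for Cyp51 under K/BxN serum.

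With 1 library left out at a time, serum in WT gave -0.21 to 0.22 for Hmgcs1, -0.46 to 0.21 for Idi1, -0.43 to 0.72 for Fdps and -0.54 to 0.50 for Cyp51. Serum in TASTPM gave -0.51 to 0.45 for Idi1, -0.079 to 0.69 for Sqle, -0.30 to 0.31 for Lss and -0.40 to 0.082 for Cyp51. The interaction gave -0.39 to 0.59 for Idi1, -0.73 to 0.31 for Cyp51 and -3.52 to 0.87 for Insig1. Genotype under control serum gave -0.25 to 0.19 for Hmgcs1, -0.23 to 0.73 for Idi1, -0.85 to 0.18 for Fdps, -0.35 to 0.69 for Cyp51 and -1.07 to 3.32 for Insig1. Genotype under K/BxN serum gave -0.37 to 0.14 for Fdft1, -0.20 to 0.10 for Cyp51 and -0.51 to 0.12 for Insig1.

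The median of the 8 was 0.56 for serum in WT without the 4 libraries (0.20 in edgeR without them), and 0.043 with edgeR and 0.050 with DESeq2 for the interaction. With 1 library left out it was -0.68 to 0.0063 for the interaction, 0.05 to 0.37 for serum in WT, -0.19 to 0.38 for serum in TASTPM and -0.0073 to 0.53 for genotype under control serum. The median for genotype under control serum turned to -0.066 with edgeR and -0.071 with DESeq2, and that under K/BxN serum to 0.11 without TASTPM K/BxN ST 4. Over all genes, the 1 call of limma for serum in WT became 2 without a trend, 127 with DESeq2 and 0 with library totals, a pseudocount of 10, the 2 groups alone, edgeR and both omissions of the 4 libraries, and 0 to 17 with 1 library left out. DESeq2 called 16 for serum in TASTPM, 12 for the interaction and 41 for genotype under control serum where limma called 0, and leaving out 1 library gave 0 to 1, 0 to 3 and 0 to 11. Without the 4 libraries limma called 1 for genotype under control serum. No paired analysis was possible because no 2 groups share a replicate number. Fdps and Insig1 each had a library with 0 reads and Lss one with 3, no alternative varied depth, and the intervals for serum in WT reached past a 2-fold change for 6 of the 8.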
